A study of Mus musculus with 8 samples.

Results

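The genes of the major histocompatibility complex (MHC, called H2 in the mouse) and of antigen processing were examined in skin fibroblasts of Nd2-mutant and control mice. They were taken from the deposited expression table by their symbols: every probe whose symbol starts with H2-, and the probes of B2m, Tap1, Tap2, Tapbp, Psmb8, Psmb9, Psmb10, Nlrc5, Ciita, Cd74, Erap1 and Cd1d1. This gave 58 probes of 46 genes among the 25697 probes of the array, which carry 18138 different symbols. Of these, 41 probes of 35 genes had an H2- name, and 17 probes covered 11 of the 12 other genes, since Nlrc5 had no probe. H2-D1 and H2-L, classical class I genes, had no probe under these symbols. The Nd2-mutant group was the conplastic strain C57BL/6J-mtALR/LtJ, whose mitochondrial NADH dehydrogenase subunit 2 gene carries a single base exchange, and the control group was the conplastic strain C57BL/6J-mtAKR/J. Conplastic strains are made by repeated backcrossing of females of a mitochondrial donor strain to C57BL/6J males, so that both groups were bred to the nuclear genome of C57BL/6J and differ by the donor of their mitochondrial DNA. Each group held 4 mice of 12 months of age, 2 males and 2 females, none of them treated, and the cells were primary fibroblasts of the first passage. Mice 28 and 32 (male) and 34 and 35 (female) were Nd2-mutant, and mice 16 and 17 (male) and 15 and 37 (female) were controls. RNA of each mouse was hybridized to 1 MouseRef-8 v2.0 array, a bead array that reports the brightness of each probe as an intensity.

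MHC class I molecules show peptides from inside the cell to cytotoxic T cells and are made by nearly all nucleated cells. A heavy chain encoded by an H2 gene pairs with the light chain beta-2 microglobulin (B2m), while the proteasome with its inducible subunits Psmb8, Psmb9 and Psmb10 cuts the peptides, the Tap1 and Tap2 transporter carries them into the endoplasmic reticulum, the aminopeptidase Erap1 trims them and tapasin (Tapbp) helps to load them. MHC class II molecules show peptides taken up from outside, are largely restricted to professional antigen-presenting cells and depend on the transactivator Ciita, as class I genes depend in part on Nlrc5. Interferon-gamma raises most of these genes in fibroblasts.

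The stretches of 150 bases before the start of 4 of these genes are shown because they carry the motifs through which the family is known to be switched on, and because the starts of Tap1 and Psmb9 lie head to head. The sequences were taken from RefSeq (GRCm38.p6) and are written from 5′ to 3′ on the strand of the gene. Capitals mark GAAANNGAA (the core of the interferon-stimulated response element), CCAAT, and TGACG (the core of the cyclic AMP response element) on either strand, so that CCAAT and TGACG also appear as ATTGG and CGTCA.
B2m, chr2:122147537-122147686, plus strand: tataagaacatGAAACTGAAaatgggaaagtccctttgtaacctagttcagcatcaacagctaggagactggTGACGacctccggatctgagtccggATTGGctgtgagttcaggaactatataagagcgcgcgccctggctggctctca
H2-T23, chr17:36032702-36032851, minus strand: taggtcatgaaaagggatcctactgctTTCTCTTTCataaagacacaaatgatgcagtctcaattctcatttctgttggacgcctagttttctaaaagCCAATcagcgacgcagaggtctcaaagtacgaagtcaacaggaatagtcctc
Tap1, chr17:34187406-34187555, plus strand: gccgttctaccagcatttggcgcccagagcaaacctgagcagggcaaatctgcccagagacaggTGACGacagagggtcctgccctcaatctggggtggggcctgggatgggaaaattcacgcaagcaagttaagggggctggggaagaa
Psmb9, chr17:34187331-34187480, minus strand: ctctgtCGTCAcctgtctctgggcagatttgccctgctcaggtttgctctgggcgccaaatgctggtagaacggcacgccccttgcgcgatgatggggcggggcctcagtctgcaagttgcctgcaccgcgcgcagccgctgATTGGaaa
The B2m stretch lies inside the annotated span of Patl2 and the H2-T23 stretch inside that of the noncoding A930015D03Rik, whereas the other 2 lie in no annotated gene. The interferon core began 139 bases before the start in B2m and 123 bases before it, on the reverse strand, in H2-T23, and the same TGACG stands in the Tap1 and, as CGTCA, in the Psmb9 stretch. RefSeq held 35 promoters of 32 of the member genes. In the 250 bases before the start, CCAAT was found in 29 of the 35, 82.9%, and in 33.8% of all 32851 promoters of the table. TGACG was found in 13 of the 35, 37.1%, and in 17.8% of all promoters. GAAANNGAA was found in 3 of the 35 (B2m, Erap1 and H2-T23) and in 7.13% of all. GGGGATTCC, a site of the NF-kB type, was found in 3 of the 35 and in 0.213% of all. These 3 were both promoters of H2-K1, which overlap, and that of H2-Q7. Several of these genes are copies of one another, so their promoters are not independent, and a match describes the letters of the sequence and not a bound factor.

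Most of the family was not measurable in the fibroblasts. A probe was called detected at a detection p-value under 0.01, and 33 of the 58 probes, covering all probes of 27 genes, were detected on 0 of the 8 arrays, with intensities between -9.32 and 10.4. Among them were the class II genes H2-Aa, H2-Ea, H2-Eb1, H2-DMb2, H2-Oa and H2-Ob, the class II invariant chain Cd74 with both of its probes, Ciita, and Erap1 with both of its probes. The nonclassical class I genes H2-Bl, H2-M1, H2-M2, H2-M9, H2-M10.1 to H2-M10.6, H2-M11, H2-Q2, H2-Q5, H2-Q10, H2-T3, H2-T24 and H2-Tw3 were also detected nowhere. The same held for H2-D4 and for 1 of the 3 B2m probes (ILMN_2670561). Whether the C57BL/6J nuclear genome carries an expressed copy of each listed gene was not examined. Another 5 probes were detected on some arrays but did not enter the tests. The classical heavy chain gene H2-K1 was detected on 6 arrays, with intensities of 12.9, 12.4, 9.64 and 13.7 in Nd2-mutant mice 28, 32, 34 and 35 and of 19.4, 20.6, 15.4 and 6.71 in control mice 15, 16, 17 and 37. The Tap1 probe was likewise detected on 6 arrays, with 26.2, 18.6, 10.0 and 25.8 in the mutants and 48.8, 19.2, 14.0 and 12.2 in the controls, in the same order of mice. Both groups of values overlapped for both genes. H2-Q1 was detected on 2 arrays, another H2-Ab1 probe (ILMN_2631423) on 2 and H2-Q8 on 1.

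The remaining 20 probes of 15 genes passed the filter of detection on each of the 4 arrays of a strain and were tested, 34.5% of the member probes against 40.5% of all probes of the array. Of these, 15 were detected on all 8 arrays. Class I genes are near-identical to one another in long stretches, and the probe sequences were not used here, so that the signal of a probe with an H2-Q, H2-T or H2-K name may come from more than 1 gene. The label of the cells was checked with marker genes. All 9 fibroblast genes were detected (among them Col1a1, Dcn and Pdgfra). Their summed intensity was 35978 to 41205 in the mutants and 30023 to 44242 in the controls. By contrast, 0 of 5 dendritic or Langerhans cell genes, 0 of 3 B cell genes and 0 of 5 T cell genes on the array were detected anywhere. Of 3 general leukocyte genes 2 were detected (Cd53 and Coro1a, each by a probe read on all 8 arrays) and Ptprc was not, and their summed intensity was 78.3 to 197 in the mutants, highest in mouse 35, and 81.4 to 128 in the controls. Of 5 endothelial genes 4 were detected, with sums of 123 to 218 in the mutants and of 199 to 454 in the controls, highest in control mouse 15. All 14 macrophage genes on the array were detected on at least 1 array, some (such as Fcgr3 and Tyrobp) on only 1. Their summed intensity was 1161 to 4907 in the mutants and 678 to 1645 in the controls, with the highest sum in mutant mouse 35. A single bright Lyz probe gave 3015 of the sum in mutant mouse 35 and 405 in control mouse 16. Of the 7 tested macrophage probes, 6 were on average higher in the mutants and 1, that of Csf1r, lower. Between 10663 and 11350 probes of the whole table were detected per array. Averaged over its pairs with the remaining arrays, the correlation of tested probes was 0.934 for control mouse 15 and 0.963 to 0.974 for the other 7 mice.

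None of the 20 tested probes passed a threshold for a difference between the strains. Differences are given as mutant minus control on the log2 scale, after values below 0 were set to 0 and 16 was added, which understates the change of dim probes. With limma, 0 of 20 probes passed a Benjamini-Hochberg adjusted p under 0.05 (0% of all 10414 tested probes did), and the smallest adjusted p among them was 0.666. At an unadjusted p under 0.05 the count was 0 of 20, against 7.63% of all tested probes, and 0 of 20 had strain values without overlap, against 4.37% of all. By direction, 10 probes were higher and 10 lower in the mutants, with a median difference of 0.01 and a range from -0.51 to 0.33. Over all tested probes 5223 were higher and 5191 lower, with a median of 0.00. The 95% interval of the difference reached 0.30 to 0.91 to each side of its value, and for 17 of the 20 probes it lay wholly within 1 of 0, so that a difference of 1 in size lay inside the interval for Tap2, H2-Ke6 and 1 Tapbp probe. Of 12 tested probes of the fibroblast markers, 8 were higher and 4 lower in the mutants. In limma 3 had an unadjusted p under 0.05, against 7.63% of all tested probes, and 0 passed the adjusted threshold. Lum (0.88 ± 0.31) and 1 Dcn probe (0.82 ± 0.28) had no overlap, against 4.37% of all, whereas the other Dcn probe differed by 0.12 ± 0.24. In bulk RNA, fewer cells of a type and less RNA per cell cannot be told apart.

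**Figure D1:**
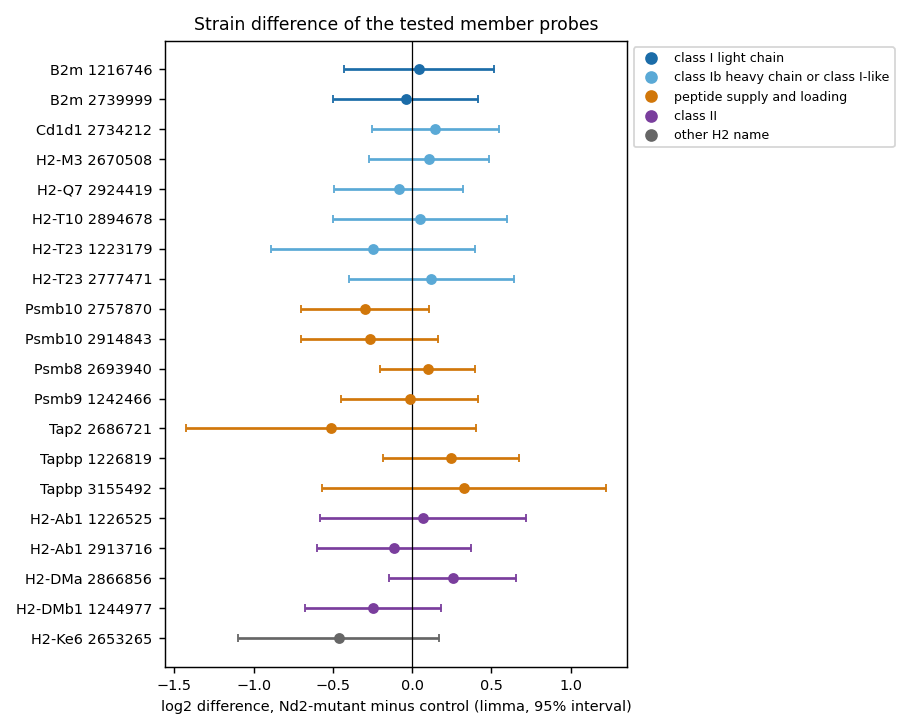
Difference between the strains on the log2 scale (x axis, Nd2-mutant minus control) for each of the 20 tested probes (y axis, gene symbol and probe number), as the limma estimate with its 95% interval, colored by role. All 20 intervals include 0, and the widest belong to Tap2 and 1 Tapbp probe.

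The light chain gene B2m was read by 2 bright probes. Probe ILMN_1216746 gave 3029, 2975, 3015 and 4438 in Nd2-mutant mice 28, 32, 34 and 35 and 3887, 2178, 3485 and 3613 in control mice 15, 16, 17 and 37, the order of mice used for all values that follow. Probe ILMN_2739999 gave 3266, 2724, 3525 and 4080.1 in the mutants and 4871, 2559, 3461 and 3319.5 in the controls. In both probes control mouse 16 was the lowest and the strains overlapped. The means were 3364 ± 716 against 3291 ± 761 for the first probe and 3399 ± 563 against 3553 ± 964 for the second (SD, 4 mice each). The log2 differences were 0.04 ± 0.21 and -0.04 ± 0.21 (SE), with 95% intervals from -0.43 to 0.52 and from -0.50 to 0.42, and an adjusted p of 0.958 and 0.961 in limma.

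The 6 tested probes with heavy chain or class I-like names belonged to 5 genes, 4 of them higher and 2 lower in the mutants, with a median of 0.08 and a range from -0.25 to 0.15. Cd1d1, which presents lipids to natural killer T cells, read 152, 135, 187 and 149 in the mutants and 167, 117, 173 and 107 in the controls. The mutants lay inside or just above the range of the controls, and the log2 difference was 0.15 ± 0.18 (adjusted p = 0.813, limma). H2-M3, which presents formylated peptides such as those of mitochondria and bacteria, read 177, 180.3, 130.2 and 153 in the mutants and 124, 147, 194 and 129.9 in the controls. Its difference was 0.11 ± 0.17 (adjusted p = 0.858, limma), with an interval from -0.27 to 0.48. H2-T23, the gene of the Qa-1 molecule seen by receptors of natural killer cells, was read by 2 probes that pointed in opposite directions. The first (ILMN_1223179) gave 134, 205, 109 and 237 in the mutants and 295, 209, 213 and 114 in the controls, a difference of -0.25 ± 0.29. The second (ILMN_2777471) gave 347, 407, 222 and 425 against 407, 332, 316 and 219.8, a difference of 0.12 ± 0.23. In both H2-T23 probes mutant mouse 34 and control mouse 37 were the 2 lowest, and neither probe passed the test (adjusted p = 0.807 and 0.882, limma). H2-Q7 read 39.9, 52.1, 34.7 and 46.4 in the mutants and 58.9, 50.1, 52.3 and 29.0 in the controls, a difference of -0.08 ± 0.18. H2-T10, whose values are given with the comparison of the sexes, differed by 0.05 ± 0.25.

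Peptide supply and loading was covered by 7 tested probes of 5 genes, 3 higher and 4 lower in the mutants, with a median of -0.02. Tap2 had the largest difference of the 20 probes and also the largest spread. It read 195, 202, 147 and 216 in the mutants and 729, 308, 189 and 129 in the controls. Control mouse 15 stood far above the other mice, while control mouse 37 was the lowest of all 8. The means were 189.8 ± 30.1 and 339 ± 270.3 (SD, 4 mice each), and the difference was -0.51 ± 0.41 with an interval from -1.43 to 0.40 (adjusted p = 0.718, limma; exact permutation p = 0.486). Without control mouse 15 it was -0.06, and without control mouse 37 it was -0.85. The summed intensity of 16 interferon-response genes was 3009.6 to 4063 in the mutants and 3177 to 5064 in the controls. It was highest in control mouse 15, where Tap1, Tap2 and Psmb9 were also highest. The other loading genes were highest elsewhere. Both Psmb10 probes were highest in control mouse 16 and Psmb8 in mutant mouse 32. Tapbp was highest in mutant mouse 28 (ILMN_1226819) and in control mouse 17 (ILMN_3155492), and the latter probe was lowest in control mouse 15. A single bright Irgm1 probe (ILMN_2804037) gave 3210 of the sum in control mouse 15 and 2115 in mutant mouse 35. Another Irgm1 probe (ILMN_1234539) read 73.7 in control mouse 15 and 91.9 to 153 in the mutants. Oasl2 was highest in control mouse 15 (539) and Usp18 in mutant mouse 35 (208). The part of the interferon response in the Tap2 values was not tested. The endothelial sum was also highest in control mouse 15 (454), followed by 350.1 in control mouse 16, which were also the 2 highest mice for Tap2, and its part in the Tap2 values was not tested either. Among the endothelial genes Emcn (endomucin) read 78.6, 124, 50.9 and 67.2 in the mutants and 249, 272, 125 and 176 in the controls. These values did not overlap (difference -1.20 ± 0.27, adjusted p = 0.639, limma). In control mouse 16, Emcn gave 272 of the endothelial sum of 350.1. The strains overlapped for the other tested endothelial genes, Pecam1 (-0.40 ± 0.31), Cdh5 (-0.08 ± 0.33) and Tek, which was higher in the mutants (0.49 ± 0.33).

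The inducible proteasome subunits gave 4 of these probes. The mean of Psmb10 was lower in the mutants by both probes, neither of which passed the test. Probe ILMN_2757870 read 283, 310.4, 207 and 286 in the mutants and 354, 412, 334 and 253 in the controls. Probe ILMN_2914843 read 317, 394, 226 and 374 against 410.1, 466, 389 and 310.3. In both, 3 of the 4 controls lay above the mutant mean and mutant mouse 34 was the lowest of all mice. The differences were -0.30 ± 0.18 and -0.27 ± 0.20 (adjusted p = 0.666 and 0.697, limma; exact permutation p = 0.171 and 0.257). Psmb8 read 16.3, 20.3, 15.6 and 17 in the mutants and 18.0, 10.8, 17.8 and 14.3 in the controls, a difference of 0.10 ± 0.14. Psmb9 read 48.7, 38.6, 29.2 and 51.8 against 63.1, 39.3, 38.5 and 31.6, a difference of -0.02 ± 0.19. For both the strains overlapped, with intervals from -0.20 to 0.40 for Psmb8 and from -0.45 to 0.41 for Psmb9.

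The mean of tapasin (Tapbp) was higher in the mutants by both of its dim probes, neither of which passed the test. Probe ILMN_1226819 read 34.8, 25.3, 20.8 and 23.7 in the mutants and 15.7, 11.5, 33.0 and 20.5 in the controls, a difference of 0.24 ± 0.19 (adjusted p = 0.715, limma). Probe ILMN_3155492 read 33.6, 44.2, 21.2 and 31.7 against -2.36, 16.4, 61.2 and 37, a difference of 0.33 ± 0.40 (adjusted p = 0.813, limma). The second probe was not detected in control mouse 15, and without this mouse its difference was -0.09.

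**Figure D2:**
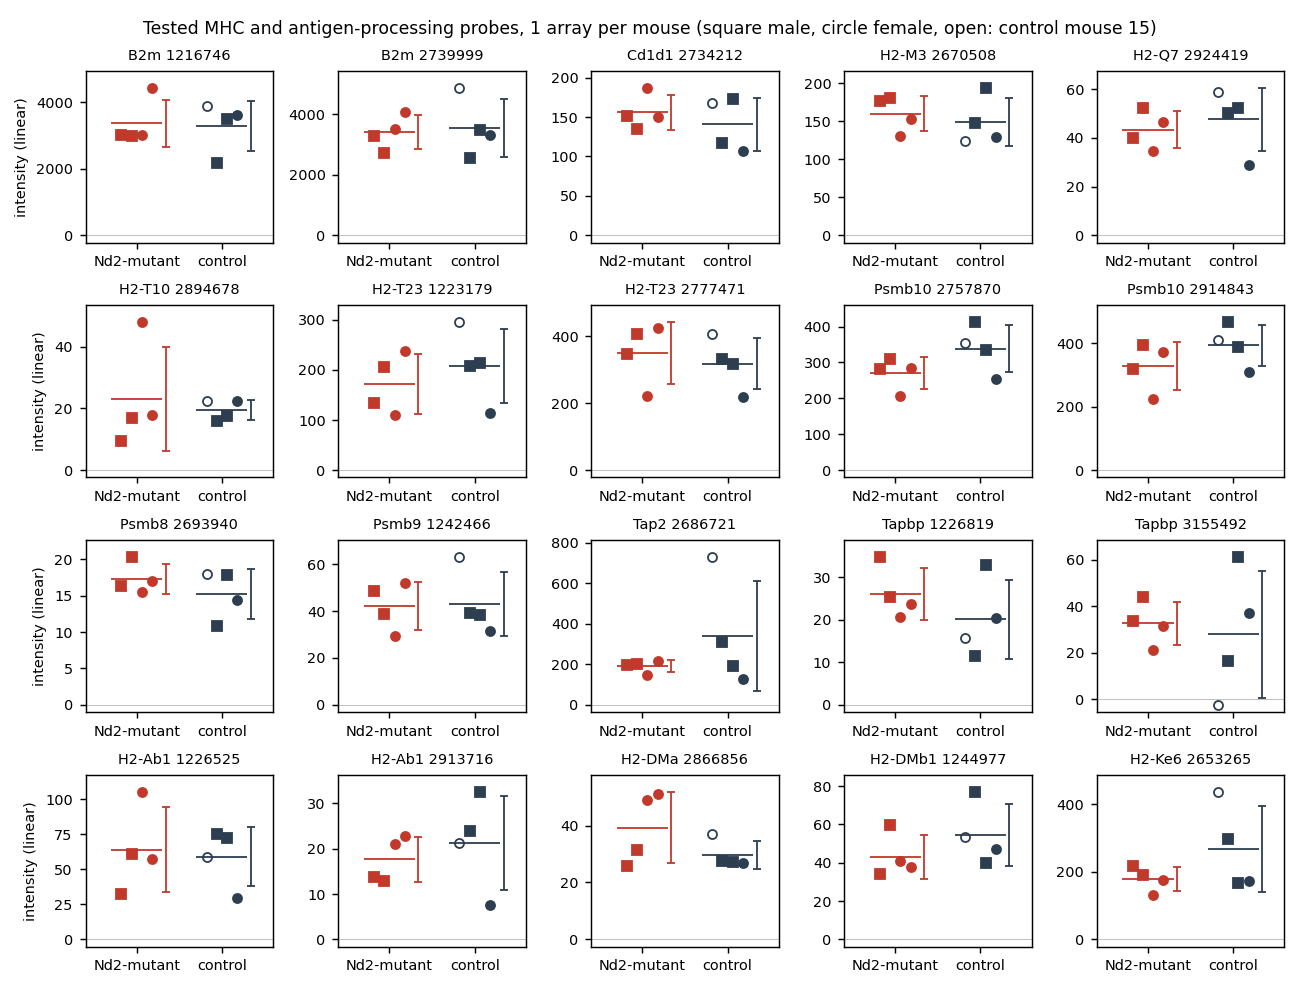
Intensity (y axis, linear scale) of each tested probe in Nd2-mutant and control mice, 1 point per mouse (squares male, circles female, open circle control mouse 15), with the mean as a line and the SD as a bar. The points of the strains overlap in all 20 panels, and control mouse 15 lies above the other mice for Tap2 (729) and H2-Ke6 (438).

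Class II names gave 4 tested probes of 3 genes, 2 higher and 2 lower in the mutants. H2-Ab1, the beta chain of the class II I-A molecule, read 32.3, 60.9, 105 and 57.4 in the mutants and 58.5, 75.2, 72.5 and 29.6 in the controls with probe ILMN_1226525. Probe ILMN_2913716 read 13.8, 12.9, 21.1 and 22.8 against 21.4, 23.9, 32.6 and 7.57. Values varied more inside each strain than between the strain means, and the differences were 0.07 ± 0.29 and -0.12 ± 0.22 (adjusted p = 0.953 and 0.879, limma). H2-Aa, whose alpha chain completes this molecule, and Cd74 were detected on no array, mouse 35 with its high macrophage sum included. H2-DMa and H2-DMb1 encode the chains of the H2-DM molecule, which loads peptides onto class II. H2-DMa read 25.8, 31.4, 49.1 and 50.9 in the mutants and 37, 27.5, 27.1 and 26.9 in the controls. The 2 female mutants were the highest, and the difference was 0.25 ± 0.18 (adjusted p = 0.696, limma). H2-DMb1 read 34.1, 59.5, 40.7 and 37.7 against 53.5, 77.1, 39.9 and 47.2, a difference in the other direction of -0.25 ± 0.19. How far the macrophage signal of mouse 35 enters the H2-DMa value was not tested.

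H2-Ke6 (also known as Hsd17b8) has an H2- name through its place in the complex but encodes an enzyme of steroid and fatty acid metabolism. It read 219, 190.0, 131 and 175 in the mutants and 438, 296, 168 and 173 in the controls. The difference of -0.46 ± 0.29 (adjusted p = 0.666, limma) was carried by control mice 15 and 16, and without control mouse 15 it was -0.21. The endothelial sum was highest in the same 2 controls, in control mouse 16 mostly through Emcn. The part of this sum in the H2-Ke6 values was not tested.

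Probes of the same gene were set side by side, since separate probes read separate parts of a transcript. Of 5 genes with 2 tested probes, Psmb10 and Tapbp had differences of the same sign and B2m, H2-Ab1 and H2-T23 of opposite sign. The gap between the probes of a gene was 0.028 for Psmb10, 0.085 for B2m, 0.086 for Tapbp, 0.18 for H2-Ab1 and 0.37 for H2-T23 on the log2 scale. The SEs of the H2-T23 differences were 0.29 and 0.23, and no test of these gaps was made.

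Single mice often stood at the ends of the range. Control mouse 15 gave the highest value of the 8 mice in 6 of the 20 probes and the lowest in 2, and over all tested probes it was the highest in 26.5% and the lowest in 31.4%. Control mouse 37, of the same strain and sex, was the highest in 0 and the lowest in 6 of the 20, against 9.52% and 9.25% of all probes. Mutant mouse 34 was the lowest in 5 of the 20, against 8.80% of all probes. With control mouse 15 left out, 8 of the 20 probes were lower in the mutants and the median was 0.06. The share lower among all tested probes was then 51.8%, with a median of -0.01. Over the omissions of 1 mouse at a time, 8 to 12 of the 20 were lower.

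**Figure D3:**
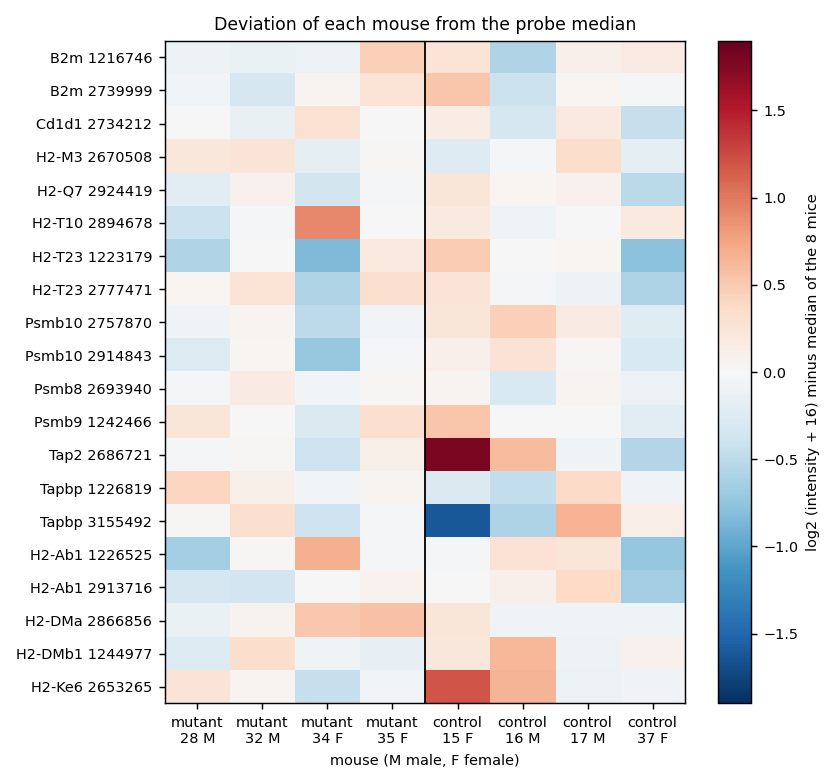
Deviation of each mouse (x axis) from the median of the 8 mice, on the log2 scale after adding 16, for each tested probe (y axis). Control mouse 15 holds the strongest colors, red in Tap2 and H2-Ke6 and blue in the second Tapbp probe, and control mouse 37 is blue or pale in most rows.

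Sex was compared with strain as a term in the same fit. In limma, 2 of the 20 probes had an unadjusted p under 0.05, against 8.31% of all tested probes, and 0 passed the adjusted threshold, against 0.0192% of all. H2-M3 was higher in males, at 177, 180.3, 147 and 194 in males 28, 32, 16 and 17 and at 130.2, 153, 124 and 129.9 in females 34, 35, 15 and 37. The male minus female difference was 0.34 ± 0.14 (adjusted p = 0.578, limma), and the groups overlapped only by male 16 and female 35. H2-DMa was lower in males by 0.35 on this scale (difference -0.35 ± 0.15, adjusted p = 0.580, limma). H2-T10 was the only one of the 20 probes in which the sexes did not overlap, as did 5.16% of all tested probes. It read 9.43, 16.9, 16 and 17.6 in the males and 47.9, 18.0, 22.3 and 22.4 in the females, a difference of -0.46 ± 0.21 (adjusted p = 0.626, limma). B2m was on average lower in males by both probes, with differences of -0.36 ± 0.19 and -0.39 ± 0.17 and an adjusted p of 0.661 and 0.604 in limma.

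Whether the strain difference depended on sex was tested as an interaction. Here 2 of the 20 probes had an unadjusted p under 0.05, against 1.77% of all tested probes, and 0 passed the adjusted threshold, against 0.0096% of all. Both were probes of H2-Ab1. With probe ILMN_1226525 the mean was 46.6 in male and 81.3 in female mutants and 73.9 in male and 44.0 in female controls. With probe ILMN_2913716 the means were 13.3, 21.9, 28.2 and 14.5 in the same order. In both, mutant males lay below control males (log2 differences of -0.56 and -0.59) and mutant females on average above control females (0.70 and 0.35). The interactions were -1.26 ± 0.49 and -0.94 ± 0.36, with an adjusted p of 1.0 for both in limma. Each mean rests on 2 mice, and the probes share the gene, the RNA and the arrays. In probe ILMN_1226525 the gap in females came from mutant mouse 34, at 105, and control mouse 37, at 29.6. The number of the 20 probes under the unadjusted threshold fell to 0 without mutant mouse 28, mutant mouse 34 or control mouse 17, and to 1 without mutant mouse 32 or control mouse 16.

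The H2 genes lie together on chromosome 17, so their neighbors were compared too. The segment was taken by gene order in RefSeq, from H2-K1 to H2-M2, and held 13 of the tested member probes and 81 tested probes of 58 other genes. Among the neighbors 27 probes were higher and 54 lower in the mutants, with a median of -0.12, whereas the share lower among all tested probes was 49.8%. Without control mouse 15 the median of the neighbors was -0.02, with 45 of the 81 lower. Over all tested probes 51.8% were then lower, with a median of -0.01. At an unadjusted p under 0.05 there were 6 neighbor probes, 7.41%, near the 7.63% of all tested probes, and 0 at the adjusted threshold. Lower in the mutants at this threshold were Cdsn (corneodesmosin, a protein of cornified keratinocytes, at -1.30 ± 0.29) and 1 probe of Vars (a valyl-tRNA synthetase, at -0.47 ± 0.15). The other Vars probe differed by -0.24 ± 0.15. Also lower were both probes of Ppp1r10 (a regulator of protein phosphatase 1, at -0.48 ± 0.16 and -0.45 ± 0.19) and Rpp21 (a ribonuclease P subunit, at -0.32 ± 0.14). A dim probe of Flot1 (flotillin 1) was higher (0.70 ± 0.27), whereas its bright probe differed by 0.03 ± 0.13. Each of the 6 probes had an adjusted p of 0.639 in limma. The tested Cdsn probe (ILMN_2796382) read 10.3, 33.2, 19.5 and 15.3 in the mutants and 122, 76.5, 36.7 and 62.6 in the controls, without overlap. The other Cdsn probes (ILMN_1235732 and ILMN_1253772) were detected on 0 arrays and were not tested. The summed intensity of 3 keratinocyte genes was 189 to 1132 in the mutants and 307 to 903 in the controls, and its part in the Cdsn difference was not tested.

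**Figure D4:**
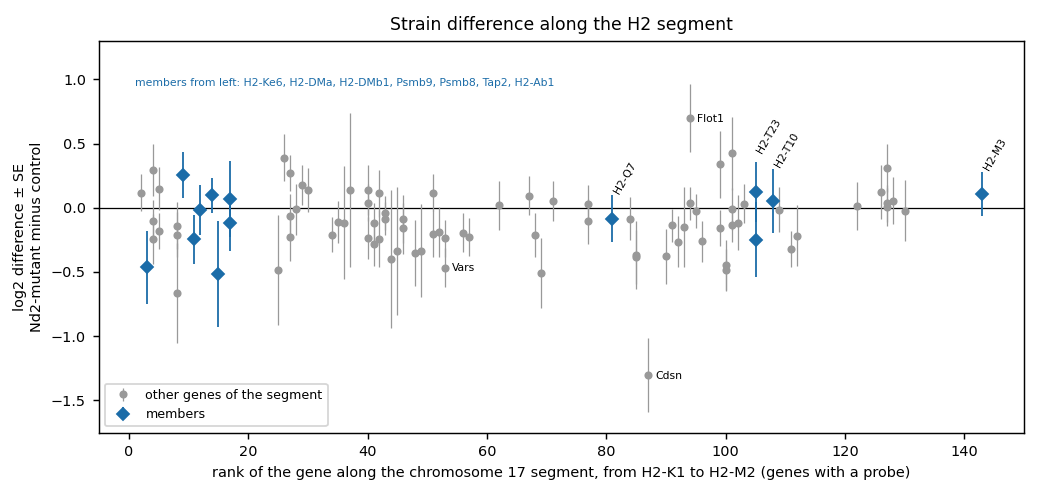
Log2 difference with its SE (y axis, Nd2-mutant minus control) of the tested probes of the H2 segment by the rank of their gene (x axis), for member genes (blue diamonds) and their neighbors (gray circles). The 13 member probes lie between -0.51 and 0.25, Cdsn at -1.30 is the lowest neighbor and the dim Flot1 probe at 0.70 the highest.

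Other genes of antigen presentation outside the member list were compared as a list of 57 genes, of which 53 were on the array and 34, with 44 probes, were tested. The list was drawn up with earlier results of these data known. Of the 44 probes 24 were higher and 20 lower in the mutants, with a median of 0.04. At an unadjusted p under 0.05 there were 8 probes of 6 genes, 18.2% against 7.63% of all tested probes, of which 7 were higher and 1 lower. No overlap between the strains was seen for 5 of the 44, 11.4% against 4.37% of all, and 0 passed the adjusted threshold, each of the 8 having an adjusted p of 0.639 in limma. Without mutant mouse 35 the count was 4 in place of 8 (5.45% of all tested probes), and without control mouse 16 it was also 4 (4.17% of all). The fifth probe without overlap was that of Nrd1, a peptidase, at -0.25.

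Psme1, a subunit of the PA28 activator of the proteasome, was higher in the mutants by both probes. It read 801, 659.8, 636 and 821 in the mutants and 466, 497, 583 and 568 in the controls with probe ILMN_2986309, without overlap. Probe ILMN_2671204 read 380.2, 381, 324 and 446 against 258, 208, 306 and 275, also without overlap. The differences were 0.45 ± 0.15 and 0.52 ± 0.16, each with an exact permutation p of 0.0286, the smallest that 4 against 4 mice can give.

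Of 15 tested probes of the interferon signaling group, 8 were higher and 7 lower. Jak2, a kinase of the interferon-gamma receptor, was higher in the mutants without overlap by both tested probes. Probe ILMN_1245579 read 811, 767, 803 and 808 against 719, 402, 622 and 556. Probe ILMN_3115162 read 273, 220.1, 334 and 303 against 206, 131, 206 and 186. The differences were 0.49 ± 0.18 and 0.60 ± 0.18. Of 3 tested probes of the receptor chain Ifngr2 1 was lower (-1.01 ± 0.43), with 505 in control mouse 15 and 191 in control mouse 16 against 68.2 to 91.5 in the mutants, and the others differed by 0.0046 and -0.10. The probes of Ifngr2 thus did not give the same difference. Sec61b, a subunit of the translocation channel of the endoplasmic reticulum, was higher by both probes (0.46 ± 0.21 and 0.36 ± 0.20). Only the first of these had an unadjusted p under 0.05 in limma. The lysosomal protease Lgmn, which acts in the class II pathway, was higher by its probe (0.56 ± 0.22), with 1219 in mouse 35, where the macrophage sum was highest. The part of that sum in the Lgmn value was not tested. Of the 4 tested genes of the promoter complex, Creb1, Nfyb, Nfyc and Rfxap, 0 had an unadjusted p under 0.05 in limma.

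**Figure D5:**
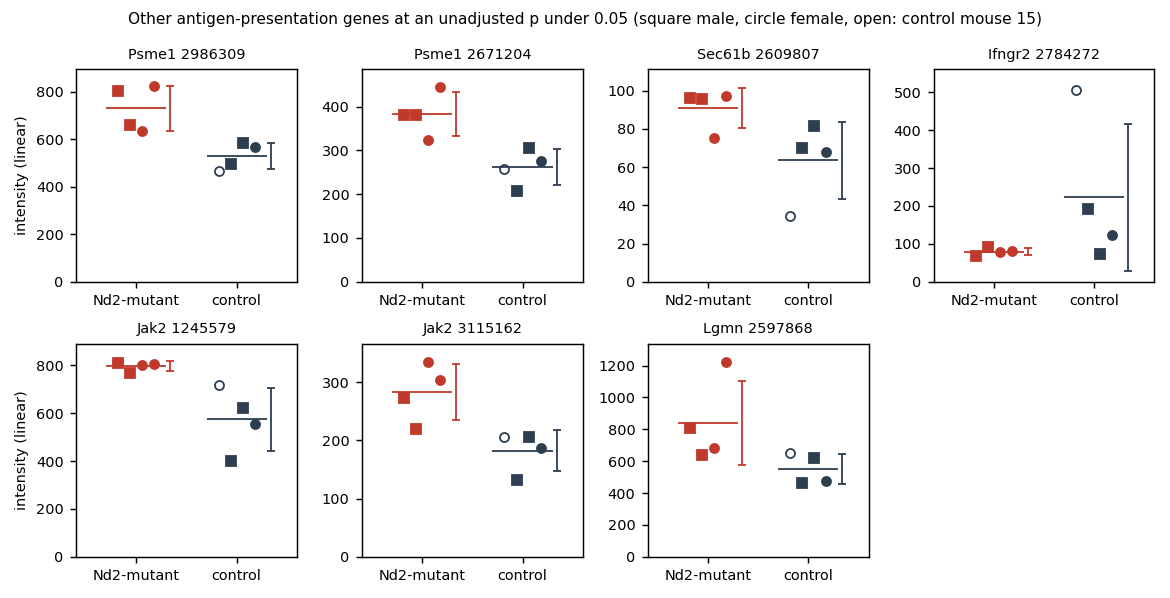
Intensity (y axis, linear scale) in Nd2-mutant and control mice of 7 of the 8 probes of other antigen-presentation genes with an unadjusted p under 0.05, 1 point per mouse (squares male, circles female, open circle control mouse 15), with the mean as a line and the SD as a bar. The strains do not overlap for both Psme1 and both Jak2 probes, and the Ifngr2 panel shows control mouse 15 at 505.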

How the data were processed

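Expression was measured on 8 arrays, 1 per mouse, and the labels gave the strain, sex and number of each mouse. GenomeStudio was used by the authors for quantile normalization and, where needed, background subtraction, which gave the deposited linear intensity of each probe. A detection p-value from the same software was deposited beside it. Both deposited tables hold the same values.

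Negative intensities were replaced by 0 and values were analyzed as log2 after adding 16. Tests were limited to a probe detected (detection p-value under 0.01) on all 4 arrays of at least 1 strain. Differences were fitted over all tested probes with limma 3.58.1 in R 4.3.3 (lmFit and eBayes, 2-sided, Benjamini-Hochberg, threshold 0.05), with exact permutation tests of single probes. The authors named limma and Student's test, and the latter (the methods' t-test) served as an alternative, beside other added values, filters, weights, sex as a term, each sex alone and omission of each mouse. The steps were tested on simulated data.

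The members, gene lists and tests were chosen with earlier results of these data known. Every member gene is named, those of class I, loading and class II with values in each mouse where tested, and other list genes at an unadjusted p under 0.05, of which 1 is not reported here. The tables give no probe position, so that neighbors were taken by gene order in RefSeq (GRCm38.p6). The number of arrays limits the precision, and p-values set each difference against the spread between these mice.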

Additional observations from a re-analysis of the deposited data

Results flagged for a closer look

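In 40 groups of 4 mice (20 probes in each strain) the highest or lowest mouse was compared with the others by Dixon's ratio, the gap to the nearest mouse divided by the range of the group, taken on the log2 scale after adding 16. It exceeded the 95% critical value in 2 groups, the count that chance gives at 1 in 20. For B2m probe ILMN_1216746, mutant mouse 35 stood apart with a ratio of 0.955, at 4438 against 2975 to 3029 in the other mutants. For H2-DMa, control mouse 15 stood apart with a ratio of 0.929, at 37 against 26.9 to 27.5 in the other controls.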

How the results depend on the processing

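No paired analysis was possible because the labels pair no Nd2-mutant mouse with a control mouse. Analyses from non-normalized values (normexp with quantile normalization, and quantile normalization without background correction) were not run, and no block for the chip was fitted, since both tables hold normalized values and name no chip. Under all alternatives run, 0 member probes passed an adjusted p under 0.05 in the strain comparison, and 11 of the 20 kept their direction. At an unadjusted p under 0.05 in limma, against 0 probes in the setting of the report, there was 1 of 25 with probes detected on at least 1 array (H2-Q1; 7.09% of all probes then tested), 5 of 58 with no filter on detection (Erap1, H2-Ab1, H2-M10.2, H2-M9 and H2-Q1, all at or near background; 6.18% of all), 1 of 22 within males (H2-Ab1; 5.04% of all) and 0 to 2 of 20 to 22 over the omissions of 1 mouse (4.17% to 14.0% of all): Tapbp without control mouse 17, and Psmb10 and Tap2 without control mouse 37. Strain values without overlap, 0 in the report, were found for 1 of 25 probes under the first of these filters (4.10% of all), 3 of 58 with no filter (3.62%), 6 of 22 within males (35.3%) and 5 of 21 within females (33.6%), where 2 mice face 2, and for 0 to 2 over the omissions (5.79% to 11.7% of all).

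The count of other antigen-presentation probes, 8 in the report, was 5 on the linear scale (6.02% of all probes then tested) and 5 by the methods' t-test (6.70%). It was 5 within males (5.04%), 2 within females (3.21%) and 4 to 12 over the omissions, with 12 without control mouse 17 (14.0%). The count of neighbor probes, 6 in the report, was 3 within males (5.04% of all) and 3 to 12 over the omissions. It was 3 without mutant mouse 28 (4.51%) or control mouse 16 (4.17%) and 12 without control mouse 17 (14.0%). Over the omissions the count for sex, 2 in the report, was 0 to 3 (0 without mutant mouse 28 or 32, 1 without mutant mouse 34), and that for the interaction was 0 to 3, with 1 when 50 was added before log2. Numbers of lower probes over the omissions, chosen after seeing the data, were 8 to 12 of 20 members, 45 to 56 of 81 neighbors and 19 to 23 of 44 other probes.

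Directions turned for 9 member probes. With array weights the log2 difference was -0.020 for B2m ILMN_1216746, 0.0075 for B2m ILMN_2739999, 0.059 for H2-Q7, 0.10 for Psmb9 and -0.13 for Tapbp ILMN_3155492. Within males it was 0.0031 for B2m ILMN_2739999, -0.56 for H2-Ab1 ILMN_1226525, -0.18 for H2-T10 and 0.11 for Psmb9, and within females -0.035 for B2m ILMN_1216746 and 0.35 for H2-Ab1 ILMN_2913716. Over the omissions the ranges were -0.14 to 0.14 for B2m ILMN_1216746, -0.18 to 0.12 for B2m ILMN_2739999, -0.16 to 0.28 for H2-Ab1 ILMN_1226525, -0.32 to 0.026 for H2-Ab1 ILMN_2913716, -0.24 to 0.0027 for H2-Q7, -0.22 to 0.23 for H2-T10, -0.038 to 0.31 for H2-T23 ILMN_2777471, -0.11 to 0.13 for Psmb9 and -0.088 to 0.67 for Tapbp ILMN_3155492. The causes were not tested. Probes near background entered only the looser filters: with probes detected on at least 1 array the difference was -0.14 ± 0.17 for H2-K1 and -0.07 ± 0.27 for Tap1 (unadjusted p = 0.434 and 0.796, limma).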
